A study of Mus musculus with 16 samples.

Results

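The 39 genes described here are a list of stromal and fibroblast genes, given by symbol. The list names matrix proteins, elastic fibre proteins, growth factors and receptors of fibroblasts, transcription factors of mesenchyme, and contractile proteins of smooth muscle. All 39 symbols were found among the 49315 gene identifiers of the count table, and 30 of them passed the filter on low counts and were tested with 15993 genes in all.

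The libraries come from primary murine tracheal epithelial cell cultures (MTECs), which were grown from C57BL/6J mice until they had differentiated at an air-liquid interface. Mice of both sexes were used, WT or KO by label for LMAN1, a lectin that carries glycoproteins from the endoplasmic reticulum to the Golgi, and their cells were left naive or were treated overnight with 20 µg/ml of house dust mite extract (HDM). WT and KO mice were littermates from heterozygous parents, and their age is not stated for these cultures. Sex, genotype and treatment make 8 groups, and with 2 biological replicates in each there were 16 libraries. Tracheas of several mice were pooled, and a pool served more than 1 condition. The inserts carried a basement membrane laid down by 3T3 cells, a mouse fibroblast line, so every group shares this coating.

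Fibroblasts and smooth muscle cells lie beneath the tracheal epithelium and secrete the matrix on which it rests. They build collagen fibrils, whose width is set by small leucine-rich proteoglycans, and elastic fibres, in which elastin is laid on fibrillin microfibrils with the help of fibulins and is crosslinked by lysyl oxidases. Fibroblasts also make growth factors such as FGF7 and FGF10, which act on epithelial receptors. Epithelial cells make some of these proteins too, and a gene on the list is therefore not by itself a mark of a fibroblast.

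Counts per library ranged from 21860698 to 43442188. Levels are given as CPM, counts scaled per library total with edgeR's TMM factors, and pairs of values are in the order replicate 1 and replicate 2. The floor of detection was set at 3 counts per library, which covers counting error only. Lman1 itself had a mean of 120.5 CPM in the 8 WT libraries and between 10.6% and 64.8% of that mean in the 8 libraries labelled KO, of which 5 held more than 20%. Groups are named by their labels throughout, and direction in every genotype comparison rests on those labels. The p-values measure the spread between these cultures, which the fit takes as independent although pools of tracheas were shared between conditions. The epithelial identity of the cultures was plain, since Krt5 ranged from 628 to 5868 CPM and Cdh1 from 1312 to 1802, although Scgb1a1, the marker of club cells, stayed at or below 3.75. Of the endothelial markers, Kdr, Vwf and Tek were above the floor in all 16 libraries, at or below 1.58, 1.2 and 0.63 CPM. Emcn, another of them, had no count in any library. Shared controls matter here, because the female WT HDM libraries enter several of the comparisons below.

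For 25 of the 39 members the 250 bases before the transcription start were searched, in promoter windows from RefSeq (build GRCm38.p6). Lox and Pdgfrb were among the members not searched, so the motif counts below do not cover them. The sequences of 4 members are shown because both of their female WT HDM libraries lay above all 14 other libraries, and because they include the most abundant matrix gene, the most abundant contractile gene and the gene with the largest fold. They are written 5′ to 3′ on the strand of the gene, and capitals mark matches on either strand to TATAAA, the core of the TATA box, or to GGAATG, the site of TEAD factors.
Sparc, chr11:55420081-55420330, minus strand: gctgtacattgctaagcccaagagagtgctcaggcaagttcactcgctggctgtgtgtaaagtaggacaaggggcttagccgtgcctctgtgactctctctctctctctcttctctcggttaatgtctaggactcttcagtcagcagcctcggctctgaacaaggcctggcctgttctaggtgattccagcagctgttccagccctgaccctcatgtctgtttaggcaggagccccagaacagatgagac
Acta2, chr19:34255374-34255623, minus strand: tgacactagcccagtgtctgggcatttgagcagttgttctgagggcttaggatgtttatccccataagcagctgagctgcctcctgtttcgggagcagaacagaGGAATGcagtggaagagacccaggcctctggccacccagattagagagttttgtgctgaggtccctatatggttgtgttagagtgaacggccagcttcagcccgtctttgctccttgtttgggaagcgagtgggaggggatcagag
Inmt, chr6:55174991-55175240, minus strand: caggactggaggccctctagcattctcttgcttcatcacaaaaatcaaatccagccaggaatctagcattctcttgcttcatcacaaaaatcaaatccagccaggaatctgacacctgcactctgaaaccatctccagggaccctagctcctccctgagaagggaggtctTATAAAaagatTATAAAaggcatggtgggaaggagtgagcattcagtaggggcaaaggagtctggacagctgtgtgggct
Ogn, chr13:49607765-49608014, plus strand: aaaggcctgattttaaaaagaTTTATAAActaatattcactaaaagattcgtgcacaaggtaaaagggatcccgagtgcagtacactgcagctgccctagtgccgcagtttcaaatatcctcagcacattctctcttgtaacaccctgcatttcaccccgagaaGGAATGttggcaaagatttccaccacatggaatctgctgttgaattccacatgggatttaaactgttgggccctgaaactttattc
The Inmt window held TATAAA at 80 and 69 bases before the start, and the Ogn window held GGAATG 86 bases before it. In Ogn the letters TATAAA were also read at 229 and 227 bases before the start, on opposite strands and overlapping. Acta2 held GGAATG 146 bases before the start, and Sparc held neither motif. The starts are those of RefSeq, and by the gene spans given below the Sparc window lies inside its gene. The Acta2 and Inmt windows overlap the spans of their genes. Across the members searched, TATAAA was found in 5 (Postn, Inmt, Tbx4, Meox2 and Ogn) and GGAATG in 4 (Prrx1, Mfap2, Ogn and Acta2), where 12.4% and 12.6% of all 32851 promoter windows held them. Members are counted by gene, with a match in any of its windows (29 windows in all), and the shares by window. TGANTCA, a form of the AP-1 site, was found in the Igf1 window alone, against 6.75% of all windows. The strict CArG box of serum response factor (CC, then A or T in each of the next 6 positions, then GG) was found in 0 members, against 1.47%, and forms that differ from it by a base, which serum response factor can also bind, were not searched. These matches describe letters in the windows and were not tested as sites.

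Levels of the 39 genes differed widely. Per kilobase of exon, Sparc was the most abundant with a mean of 154 CPM per kb, followed by Acta2 with 41.3, Pcolce with 25.3, Lox with 16.1 and Fbln1 with 8.13. In 20 members every library was above the floor, and in 3 (Tcf21, Meox2 and Clec3b) none was. The highest library was female WT HDM replicate 2 for 23 of the 39 genes and female WT naive replicate 2 for 8. Summed over all 39 members, the level was 3097 and 4843 CPM in female WT HDM MTECs and between 331.8 and 1199 CPM in the other 14 libraries. Sparc made up most of the sum in female WT HDM MTECs, and without it their sums were 760.5 and 1523 CPM, against 773.3 in female WT naive replicate 2. The lower of the female WT HDM sums then lay within the range of the other libraries. In bulk RNA, fewer cells of a type and less RNA per cell cannot be told apart, which holds for every level below.

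**Figure D1:**
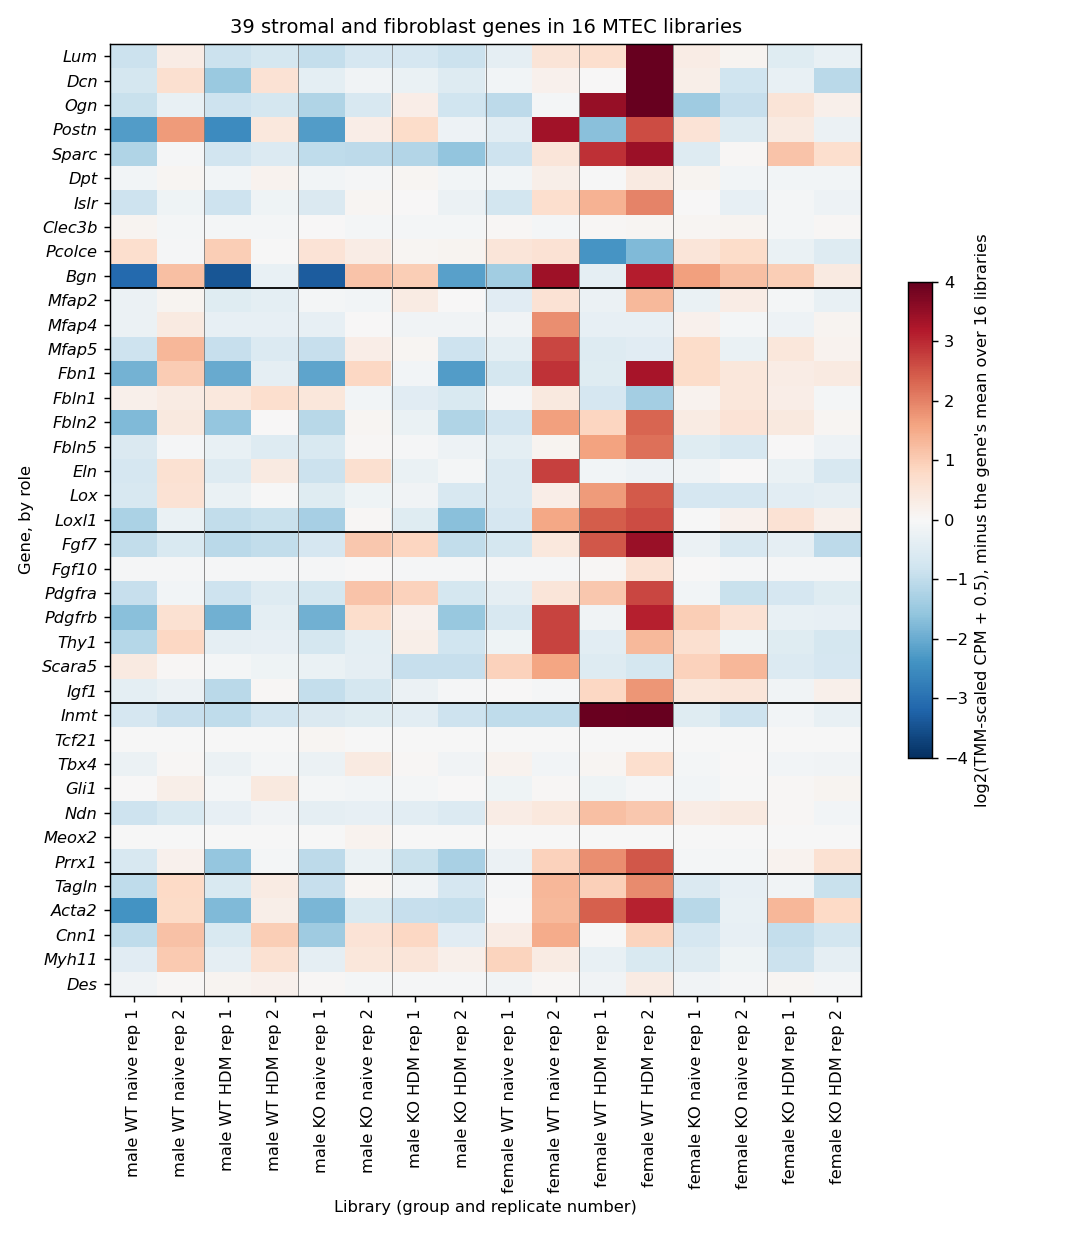
Levels of the 39 genes (rows, by role, with black lines between roles) in the 16 libraries (columns), as log2(CPM + 0.5) minus each gene's mean over the libraries. Colours are cut at 4 either way; female WT HDM replicate 2 is the highest library for 23 of the 39 genes, while Bgn, Postn and Fbn1 are low in replicate 1 and high in replicate 2 of several groups.

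The response of female WT MTECs to HDM had the most called members among the treatment comparisons. Of the 30 tested members 11 rose, 3 fell and 16 did not pass the test (edgeR's quasi-likelihood test, Benjamini-Hochberg adjusted p under 0.05). Sparc, Ogn, Inmt, Lum and Lox were among those that rose, and Pcolce, Fbln1 and Scara5 fell. In the same comparison 43.1% of all genes were called, so 14 of 30 is close to the background. The median log2 fold change of the members was 0.95, against -0.02 over all genes. Among the tested members 13 had both female WT HDM libraries above every other library, where 20% of all genes did, and 2 had both below, where 20.2% of all genes did. Inmt is among the 13 and adds nothing to that count, because it passed the filter only through these libraries.

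Among the proteoglycans and fibril-associated proteins, 5 of 8 tested members were called, 4 higher and 1 lower, beside the 43.1% of all genes called. Sparc (ENSMUSG00000018593, chromosome 11 from 55394500 to 55423183 in GRCm38) encodes a collagen-binding glycoprotein of matrix and basement membrane. It stood at 174 and 425 CPM in female WT naive MTECs and 2336 and 3320 in female WT HDM MTECs. Female KO libraries held 217 and 317 CPM when naive and 669.8 and 491 after HDM. In male MTECs Sparc had 132 and 294 CPM in WT naive, 182 and 211 in WT HDM, 152 and 149.6 in KO naive and 136 and 102 in KO HDM. Both female WT HDM libraries were above all others, with both female KO HDM libraries next. The log2 fold change in female WT MTECs was 3.24 ± 0.45 (SE), with an adjusted p of 0.000175 from edgeR's quasi-likelihood test.

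Ogn (ENSMUSG00000021390, chromosome 13 from 49608046 to 49624501) encodes osteoglycin, a small leucine-rich proteoglycan that binds collagen fibrils. Its level was 0.545 and 1.55 CPM in female WT naive and 23.9 and 41.6 in female WT HDM MTECs, 0.313 and 0.65 in female KO naive and 2.58 and 2 in female KO HDM MTECs. Male libraries had 0.663 and 1.24 CPM in WT naive, 0.725 and 0.834 in WT HDM, 0.448 and 0.901 in KO naive and 2.1 and 0.757 in KO HDM. The groups of female MTECs did not overlap between treatments in either genotype, and the log2 fold change was 4.91 ± 0.59 in WT (adjusted p = 6.31e-05, edgeR). 

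Lum and Dcn encode lumican and decorin, 2 further proteoglycans of collagen fibrils, and lie next to each other on chromosome 10, Dcn from 97479609 to 97518143 and Lum from 97565128 to 97572703. Lum had 0.254 and 0.877 CPM in female WT naive and 1.04 and 28 in female WT HDM MTECs. Dcn had 2 and 2.56 CPM in female WT naive and 2.25 and 45.9 in female WT HDM MTECs. In both genes a single library, female WT HDM replicate 2, stood far above the rest, and replicate 1 was near the naive level. Female KO libraries held 0.684 and 0.558 CPM of Lum when naive and 0.202 and 0.286 after HDM, and 2.71 and 1.05 and then 1.69 and 0.788 CPM of Dcn. Over the male libraries Lum ranged from 0 to 0.707 CPM and Dcn from 0.473 to 3.73. The fitted log2 fold changes were 4.60 ± 1.25 for Lum and 3.39 ± 1.14 for Dcn (adjusted p = 0.0114 and 0.0315, edgeR). Without female WT HDM replicate 2 they were 0.81 and -0.0285, and neither was called. Both also lost their call without female WT naive replicate 1 (4.03 and 3.22) and when only the compared libraries were fitted (4.59 and 3.39), and Dcn without female WT naive replicate 2 (3.58).

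Pcolce (ENSMUSG00000029718, chromosome 5 from 137605103 to 137613784) encodes an enhancer of the protease that removes the C-terminal propeptide of procollagens, and it moved the other way. It had 117 and 127 CPM in female WT naive and 15.9 and 24.3 in female WT HDM MTECs, 119 and 142 in female KO naive and 70.8 and 58.5 in female KO HDM MTECs. The male values were 136 and 80.9 CPM in WT naive, 168 and 84.2 in WT HDM, 123 and 104 in KO naive and 88.6 and 90.3 in KO HDM. Both female WT HDM libraries were the lowest of the 16. The log2 fold change was -2.61 ± 0.33 (adjusted p = 9.4e-05, edgeR). Islr, a leucine-rich repeat protein secreted by mesenchymal cells, had 0.0727 and 1.01 CPM in female WT naive and 2 and 3.22 in female WT HDM MTECs, 0.456 and 0.248 in female KO naive and 0.404 and 0.322 in female KO HDM MTECs, and 0.0315 to 0.492 in male libraries. It did not pass the test here (adjusted p = 0.0714, edgeR).

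Bgn and Postn did not pass the test. Bgn, which encodes the proteoglycan biglycan, had 3.09 and 98 CPM in female WT naive and 6.82 and 82.1 in female WT HDM MTECs, 29.1 and 21.5 in female KO naive and 18.1 and 11.6 in female KO HDM MTECs. Male MTECs had 0.597 and 21.1 CPM in WT naive, 0.378 and 7.23 in WT HDM, 0.448 and 20.5 in KO naive and 18.4 and 1.62 in KO HDM. Postn encodes periostin, a matricellular protein, and had 2.76 and 43.5 CPM in female WT naive and 0.874 and 25.9 in female WT HDM MTECs. In female WT MTECs the replicates differed far more than the treatments did and the treatment groups overlapped, while in female KO MTECs the Bgn values did not overlap between treatments. The log2 fold changes of -0.20 ± 1.72 for Bgn and -0.81 ± 1.61 for Postn were smaller than their standard errors.

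**Figure D2:**
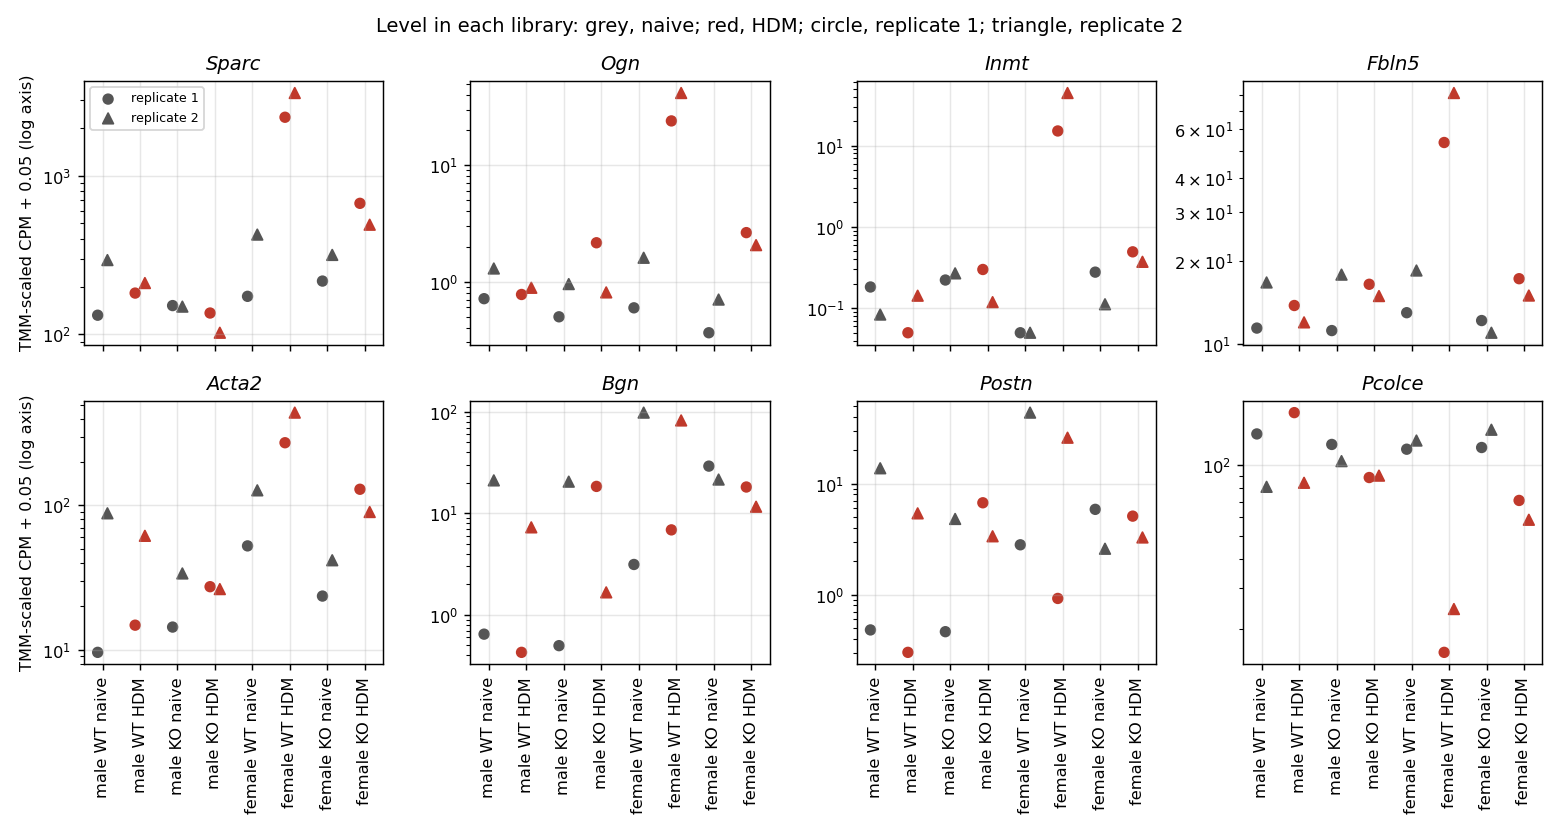
Level of 8 members in each library as CPM + 0.05 on a log axis, by group, with naive libraries in grey, HDM libraries in red, replicate 1 as circles and replicate 2 as triangles. Sparc, Ogn, Inmt, Fbln5 and Acta2 are highest in both female WT HDM libraries, Pcolce is lowest in them, and Bgn and Postn are spread between replicates of the same group.

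Among the elastic fibre and microfibril genes, 3 of 9 tested members were called, 2 higher and 1 lower, beside the 43.1% of all genes called. Fbln5 (ENSMUSG00000021186, chromosome 12 from 101746565 to 101819055) encodes a fibulin that brings elastin and lysyl oxidase-like enzymes together. It had 12.9 and 18.4 CPM in female WT naive and 53.6 and 81.1 in female WT HDM MTECs, 12.1 and 10.9 in female KO naive and 17.2 and 14.9 in female KO HDM MTECs. Male libraries held 11.4 and 16.7 CPM in WT naive, 13.7 and 11.9 in WT HDM, 11.1 and 17.8 in KO naive and 16.4 and 14.9 in KO HDM. The 14 libraries outside female WT HDM lay within a 1.68-fold range. The log2 fold change was 2.10 ± 0.27 (adjusted p = 9.98e-05, edgeR).

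Lox encodes lysyl oxidase, which crosslinks collagen and elastin. Its level was 40.5 and 72 CPM in female WT naive and 197 and 332 in female WT HDM MTECs, 37.6 and 37.4 in female KO naive and 44.5 and 46.1 in female KO HDM MTECs. Male libraries gave 38.2 and 89.4 CPM in WT naive, 49.5 and 58.9 in WT HDM, 42.7 and 53.3 in KO naive and 54.5 and 37.9 in KO HDM. Both female WT HDM libraries exceeded every other library, and the log2 fold change was 2.23 ± 0.38 (adjusted p = 0.000747, edgeR). Loxl1, a lysyl oxidase-like enzyme needed for elastin renewal, had 2.58 and 14.1 CPM in female WT naive and 25.7 and 29.4 in female WT HDM MTECs, 4.42 and 5.05 in female KO naive and 6.94 and 5.19 in female KO HDM MTECs, and 1.07 to 4.64 in male libraries. Its groups did not overlap, but it did not pass the test (log2 fold change 1.71 ± 0.69, adjusted p = 0.0633, edgeR).

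Fbln1 encodes a fibulin of basement membranes and elastic fibres, and fell. It had 32.4 and 43.9 CPM in female WT naive and 20.9 and 12.7 in female WT HDM MTECs, 37.3 and 45.9 in female KO naive and 40.8 and 31.8 in female KO HDM MTECs, 38.5 and 42.1 in male WT naive, 45.1 and 54 in male WT HDM, 45.9 and 30.9 in male KO naive and 24.1 and 21.9 in male KO HDM MTECs. Both female WT HDM libraries were below all others (log2 fold change -1.18 ± 0.25, adjusted p = 0.0029, edgeR). Fbln2, a fibulin of basement membranes and vessels, had 13.8 and 74 CPM in female WT naive and 42.9 and 120.4 in female WT HDM MTECs, 29.5 and 34.8 in female KO naive and 31.4 and 25.2 in female KO HDM MTECs, and 6.56 to 31.3 in male libraries, and did not pass (log2 fold change 0.88 ± 0.84). Fbn1, which encodes the microfibril backbone fibrillin-1, had 4 and 53.9 and then 4.74 and 71.3 CPM in these groups. Eln, the elastin gene itself, was low, with 0.109 and 5.44 CPM in female WT naive and 0.333 and 0.284 in female WT HDM MTECs. For Eln the highest of the 16 values was that of female WT naive replicate 2. The microfibril-associated Mfap2 and Mfap5 had log2 fold changes of 1.01 ± 0.97 and -4.03 ± 1.81 and did not pass. Outside female WT HDM MTECs Eln ranged from 0 to 5.44 CPM, Mfap2 from 0.0315 to 0.607 and Mfap5 from 0 to 5.57.

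Of 6 tested growth factors, receptors and surface proteins, 2 were higher and 1 was lower, beside the 43.1% of all genes called. Fgf7, a fibroblast growth factor that acts on epithelial FGFR2, had 0.182 and 0.989 CPM in female WT naive and 5.74 and 11.6 in female WT HDM MTECs, 0.456 and 0.217 in female KO naive and 0.363 and 0.0358 in female KO HDM MTECs. Male libraries held 0.0663 and 0.236 CPM in WT naive, 0.0315 and 0.0618 in WT HDM, 0.207 and 1.86 in KO naive and 1.53 and 0.0688 in KO HDM, so the replicates of both male KO groups lay far apart. The log2 fold change in female WT MTECs was 3.80 ± 1.12 (adjusted p = 0.0175, edgeR). Igf1, insulin-like growth factor 1, had 3.34 and 3.17 CPM in female WT naive and 6.24 and 12.5 in female WT HDM MTECs, 4.7 and 4.77 in female KO naive and 2.99 and 3.9 in female KO HDM MTECs, and 1.29 to 3.46 in male libraries (log2 fold change 1.52 ± 0.39, adjusted p = 0.00901, edgeR). Fgf7 and Igf1 were no longer called without female WT HDM replicate 2, with log2 fold changes of 3.21 and 0.94. Fgf7 also lost its call without female WT naive replicate 1 (3.12), and Igf1 without female WT naive replicate 2 (1.47).

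Scara5, a scavenger receptor that binds ferritin and is found on fibroblasts, was called lower with HDM in both female genotypes. It had 6.68 and 10.9 CPM in female WT naive and 2.16 and 1.85 in female WT HDM MTECs, 6.72 and 9.2 in female KO naive and 2.1 and 1.9 in female KO HDM MTECs. In male MTECs the values were 4.44 and 3.47 CPM in WT naive, 3.15 and 2.94 in WT HDM, 2.65 and 2.51 in KO naive and 1.53 and 1.51 in KO HDM. Scara5 was thus also lower after HDM in both male genotypes, though it was not called there. The naive female libraries were the 4 highest of the 16. The log2 fold change was -2.13 ± 0.26 in female WT and -1.99 ± 0.25 in female KO MTECs (adjusted p = 6.4e-05 and 0.000946, edgeR). The PDGF receptors are the classical receptors of fibroblasts and pericytes. Pdgfra had 1.02 and 2.2 CPM in female WT naive and 3.58 and 11.8 in female WT HDM MTECs, 1.31 and 0.558 in female KO naive and 0.726 and 0.895 in female KO HDM MTECs, and 0.53 to 3.77 in male libraries (log2 fold change 2.23 ± 0.86, adjusted p = 0.0559, edgeR). Pdgfrb had 0.872 and 13.3 CPM in female WT naive and 1.46 and 17.8 in female WT HDM MTECs, and Thy1, a surface glycoprotein of fibroblasts, had 0.69 and 8.27 and then 0.499 and 2.75. In Pdgfrb and Thy1 the replicates differed more than the treatments, and neither passed. In the 14 libraries outside female WT HDM, Pdgfrb ranged from 0.063 to 13.3 CPM and Thy1 from 0.0994 to 8.27.

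The 3 tested members among the transcription factors and enzymes were called higher, beside the 43.1% of all genes called. Inmt (ENSMUSG00000003477, chromosome 6 from 55170626 to 55175043) encodes indolethylamine N-methyltransferase, which methylates tryptamine and related amines. No count was found in either female WT naive library, and the level was 15.1 and 44.2 CPM in female WT HDM MTECs. The female KO libraries held 0.228 and 0.0619 CPM when naive and 0.444 and 0.322 after HDM, and the male libraries held 0.133 and 0.0336 in WT naive, 0 and 0.0927 in WT HDM, 0.172 and 0.219 in KO naive and 0.25 and 0.0688 in KO HDM. Against a floor of 3 counts per library, Inmt was at least 336-fold higher in female WT HDM than in female WT naive MTECs (adjusted p = 1.57e-05, edgeR), and at least 171-fold from replicate 1 alone. It was the 1 member that passed the filter on low counts only through the female WT HDM libraries. Inmt therefore had to differ wherever that group is compared, and its call adds nothing to any such count.

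Prrx1, a homeobox factor of mesenchyme, had 5.59 and 13.1 CPM in female WT naive and 25.6 and 40.1 in female WT HDM MTECs, 6.3 and 6.29 in female KO naive and 7.46 and 10.5 in female KO HDM MTECs. Male libraries held 4.11 and 7.67 CPM in WT naive, 1.95 and 6.4 in WT HDM, 2.96 and 5.55 in KO naive and 3.35 and 2.41 in KO HDM. The log2 fold change of 1.79 ± 0.53 was called (adjusted p = 0.0173, edgeR), though not when female WT HDM replicate 2 or female WT naive replicate 1 was left out, where it was 1.43 and 1.31. Ndn, the imprinted growth suppressor necdin, had 9.45 and 10.4 CPM in female WT naive and 18.1 and 16.6 in female WT HDM MTECs, 9.55 and 9.97 in female KO naive and 7.83 and 6.98 in female KO HDM MTECs. Male libraries gave 4.04 and 4.78 CPM in WT naive, 6.02 and 6.95 in WT HDM, 5.86 and 5.98 in KO naive and 5.6 and 5.06 in KO HDM. A log2 fold change of 0.80 ± 0.13 passed (adjusted p = 0.000536, edgeR), with the smallest standard error of the 14 called members.

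Of the 4 tested contractile genes 0 were called in this comparison by edgeR's quasi-likelihood test, with 1 at an unadjusted p under 0.05. Of all genes 43.1% were called. Acta2 (ENSMUSG00000035783, chromosome 19 from 34241090 to 34255590) encodes the smooth muscle actin that myofibroblasts also make. It had 52.3 and 127 CPM in female WT naive and 272 and 441 in female WT HDM MTECs, 23.5 and 41.6 in female KO naive and 129 and 89.97 in female KO HDM MTECs. Male libraries held 9.51 and 88.1 CPM in WT naive, 14.7 and 61.5 in WT HDM, 14.3 and 33.7 in KO naive and 27.2 and 26.2 in KO HDM. Both female WT HDM libraries were above the other 14, yet the log2 fold change of 1.98 ± 0.85 missed the threshold (adjusted p = 0.0796, edgeR). Tagln, an actin-binding protein of smooth muscle, had 4.8 and 13.1 CPM in female WT naive and 10.1 and 19.5 in female WT HDM MTECs, 3.11 and 3.78 in female KO naive and 4.4 and 2.43 in female KO HDM MTECs, and 2.15 to 8.98 in male libraries. Cnn1, the calponin of smooth muscle, had 1.93 and 4.95 and then 1.46 and 3.13 CPM in the female WT groups. Myh11, the myosin heavy chain of mature smooth muscle, had 1.2 and 0.652 and then 0.25 and 0.0947, and Des, which encodes desmin, did not pass the filter. Cnn1 ranged from 0.241 to 4.95 CPM and Myh11 from 0 to 1.38 in the 14 other libraries. Thus Acta2 was high in libraries where Myh11 and Des were near the floor.

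The neighbours of these genes in the same pathways were counted from lists of other genes. Of 9 tested fibrillar and related collagens 0 were called by edgeR's quasi-likelihood test (1 at an unadjusted p under 0.05), with a median log2 fold change of 0.14. Their summed level was 40.29 and 727.1 CPM in female WT naive and 70.58 and 695.4 in female WT HDM MTECs. The smallest p belonged to Col15a1, with a log2 fold change of -2.70 ± 1.03 (adjusted p = 0.0529, edgeR). Among 18 elastic fibre and proteoglycan neighbours 7 were higher and 0 lower, with the smallest p for Ltbp3, which binds latent TGF-β (mean 219 CPM naive and 618 HDM, log2 fold change 1.49 ± 0.08). Among 11 contractile neighbours 4 were higher, led by the tropomyosin Tpm1 (log2 fold change 2.05 ± 0.22) and by Cald1, which encodes caldesmon (log2 fold change 2.69 ± 0.35). Of 12 growth factor partner genes 6 were higher and 4 lower, among them the receptors Fgfr1 (log2 fold change 2.33 ± 0.26) and Fgfr2 (log2 fold change -1.86 ± 0.28). Fgfr1 thus rose and Fgfr2, the receptor of FGF7, fell in the libraries where Fgf7 rose. The called shares were 38.9% and 36.4% for the elastic fibre and contractile neighbours and 83.3% for the growth factor partners, beside the 43.1% of all genes.

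Markers of other cell types were read in the same libraries. Krt5, the keratin of basal cells, went from a mean of 4003 CPM in female WT naive to 1165 in female WT HDM MTECs (log2 fold change -1.78 ± 0.34). Of 12 epithelial markers 10 were called, 4 higher and 6 lower, beside the 43.1% of all genes called. Krt8, of luminal cells, went from 1208 to 3175 CPM on average. Of 8 endothelial markers 3 were tested and 0 were called by edgeR's quasi-likelihood test, with 0 at an unadjusted p under 0.05, and the summed level stayed between 1.094 and 3.197 CPM over all 16 libraries. Immune markers summed to 94.51 and 90.03 CPM in female WT HDM MTECs and to 161.6 or more in the other libraries, with Lyz2 the most abundant. Cartilage markers summed to 67.42 CPM in female WT HDM replicate 1 and 9.898 in replicate 2, against 2.099 to 5.943 elsewhere, and Col2a1 made up 61.96 CPM of the first. Col2a1 and Comp rose in this comparison (log2 fold changes 4.69 ± 0.80 and 2.49 ± 0.87). Above the floor were 6 of 8 cartilage markers in replicate 1 and 5 in replicate 2, against 2 to 5 in the other libraries, and Acan, Col9a1 and Matn3 were above it in 2 libraries each. Schwann markers, led by Mbp, summed to 82.4 and 67.72 CPM in female WT HDM MTECs and to 119.9 to 164.1 elsewhere, and Sox10 was at or below the floor in every library. Of the skeletal muscle markers Acta1 rose (mean 1.04 and then 4.51 CPM). Ckm, Myh1, Myh4 and Tnnt3 were at or below the floor in every library, and Actn3 reached at most 0.237 CPM. Of the mesothelial markers Msln, which is abundant in all libraries, fell (mean 1867 and then 1265 CPM). Wt1 and Lrrn4 were at or below the floor in every library, and Upk3b reached at most 0.41 CPM. The share of mitochondrial counts was 2.04% and 2.5% in female WT HDM libraries and 0.517% to 1.52% elsewhere. The part of these markers and of the mitochondrial share in the members' changes was not tested.

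In female KO MTECs the response to HDM was called in 2 of 30 members, 1 higher and 1 lower, where 10.4% of all genes were called. Lman1 differed between the groups compared, with 12.79 CPM in each naive library and 66.62 and 78.08 after HDM, so this response and its difference from WT set libraries with unequal Lman1 against each other. Ogn rose there (log2 fold change 2.25 ± 0.62, adjusted p = 0.0402, edgeR) and Scara5 fell, with the values given above. Leaving out any 1 of the 4 libraries ended the call of Ogn, with log2 fold changes of 1.81 to 2.85. Sparc had a log2 fold change of 1.12 ± 0.42, Pcolce of -1.01 ± 0.31 and Acta2 of 1.76 ± 0.86, and none passed (adjusted p = 0.116, 0.0575 and 0.228, edgeR). The median over the members was -0.24, against -0.0048 over all genes, and the summed level of the members was 1.48 times as high after HDM. Without Sparc that ratio was 0.984.

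In male KO MTECs Lman1 was at 14.17 and 63.43 CPM when naive and 64.98 and 66.03 after HDM. In male MTECs HDM was followed by no called member in either genotype, where 0% of all genes were called. In male WT MTECs edgeR's quasi-likelihood test called 0 of 30 members (1 at an unadjusted p under 0.05, and 0 by DESeq2), and in male KO MTECs it called 0 (2 at an unadjusted p under 0.05, and 0 by DESeq2). Sparc had log2 fold changes of -0.12 ± 0.42 in male WT and -0.34 ± 0.42 in male KO MTECs. The summed level of the members after HDM was 0.936 times that of naive libraries in male WT and 0.837 times in male KO MTECs. Medians over the members were -0.32 and -0.16.

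The response to HDM differed between the sexes in WT MTECs for 10 of 30 members, where 24.2% of all genes were called. The median difference of responses was 1.65 on the log2 scale over the members and -0.03 over all genes. Female minus male, the difference was 3.35 ± 0.60 for Sparc, 5.19 ± 0.83 for Ogn, 2.46 ± 0.53 for Lox and 2.22 ± 0.38 for Fbln5, and it was negative for Pcolce (-2.82 ± 0.44), Scara5 (-1.75 ± 0.35) and Fbln1 (-1.48 ± 0.35). Prrx1, Lum and Inmt were the others, and for Prrx1 and Lum the difference was not called without female WT HDM replicate 2 (1.93 and 3.30). The call of Inmt adds nothing to the 10, because it passed the filter only through the female WT HDM libraries. In KO MTECs 0 of 30 members differed in this way by edgeR's quasi-likelihood test (3 at an unadjusted p under 0.05, and 0 by DESeq2), where 3.56% of all genes were called.

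Female and male MTECs were then compared at each genotype and treatment. In WT HDM MTECs 19 of 30 members were called, 17 higher in female and 2 lower, where 41.6% of all genes were called. Inmt is among the 19 and adds nothing to that count, because it passed the filter only through the female WT HDM libraries. The median log2 fold change was 2.68 over the members (2.67 with genes at the floor in male MTECs set to their bound), against -0.02 over all genes. The members that were called here and not in the female WT response to HDM were Pdgfra, Mfap2, Fbln2, Loxl1, Islr and Acta2. Acta2 was higher by 3.22 ± 0.90 on the log2 scale (adjusted p = 0.0135, edgeR) and Loxl1 by 3.73 ± 0.76 (adjusted p = 0.00239). Among genes at the floor in male WT HDM libraries, Inmt was at least 316-fold higher in female MTECs, Lum at least 155-fold and Fgf7 at least 92.7-fold. From female WT HDM replicate 1 alone these bounds were 161-fold, 11.1-fold and 61.4-fold, so that of Lum rested mostly on replicate 2. Sparc was higher by 3.85 ± 0.46 and Ogn by 5.38 ± 0.61, while Pcolce was lower, with a log2 fold change of -2.65 ± 0.33, as was Fbln1 with -1.56 ± 0.25. Without female WT HDM replicate 2, the calls of Mfap2, Pdgfra, Fbln2, Dcn, Islr and Acta2 were lost, Acta2 with a log2 fold change of 2.84 and Dcn with 0.17. The same 6 calls were lost without male WT HDM replicate 1, and those of Mfap2, Pdgfra and Fbln2 without male WT HDM replicate 2.

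In naive MTECs few members differed between the sexes. Ndn was higher in female than in male WT naive MTECs (9.45 and 10.4 against 4.04 and 4.78 CPM, log2 fold change 1.17 ± 0.14, adjusted p = 0.00518, edgeR), and it was the 1 member called where 0.1% of all genes were. Scara5 was higher in female than in male KO naive MTECs (log2 fold change 1.62 ± 0.25, adjusted p = 0.0282, edgeR), the 1 member called where 0.188% of all genes were. In both comparisons the call was lost when only the compared libraries were fitted, with log2 fold changes of 1.17 and 1.63. Ndn also lost it without male WT naive replicate 1 (1.06) or female WT naive replicate 2 (1.097), and Scara5 without any 1 of its 4 libraries (1.38 to 1.83). In KO HDM MTECs 2 of 30 members were called, where 25.3% of all genes were, a share below the background. These were Sparc (log2 fold change 2.28 ± 0.43, adjusted p = 0.00308, edgeR) and Ndn (log2 fold change 0.47 ± 0.14, adjusted p = 0.0253). The call of Ndn there was lost without any 1 of male KO HDM replicate 1, male KO HDM replicate 2 and female KO HDM replicate 1 (0.55, 0.40 and 0.38), as it was with every gene that had a count kept in the fit (0.48). In KO naive MTECs Ndn had a log2 fold change of 0.72 ± 0.13 with an adjusted p of 0.0685.

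**Figure D3:**
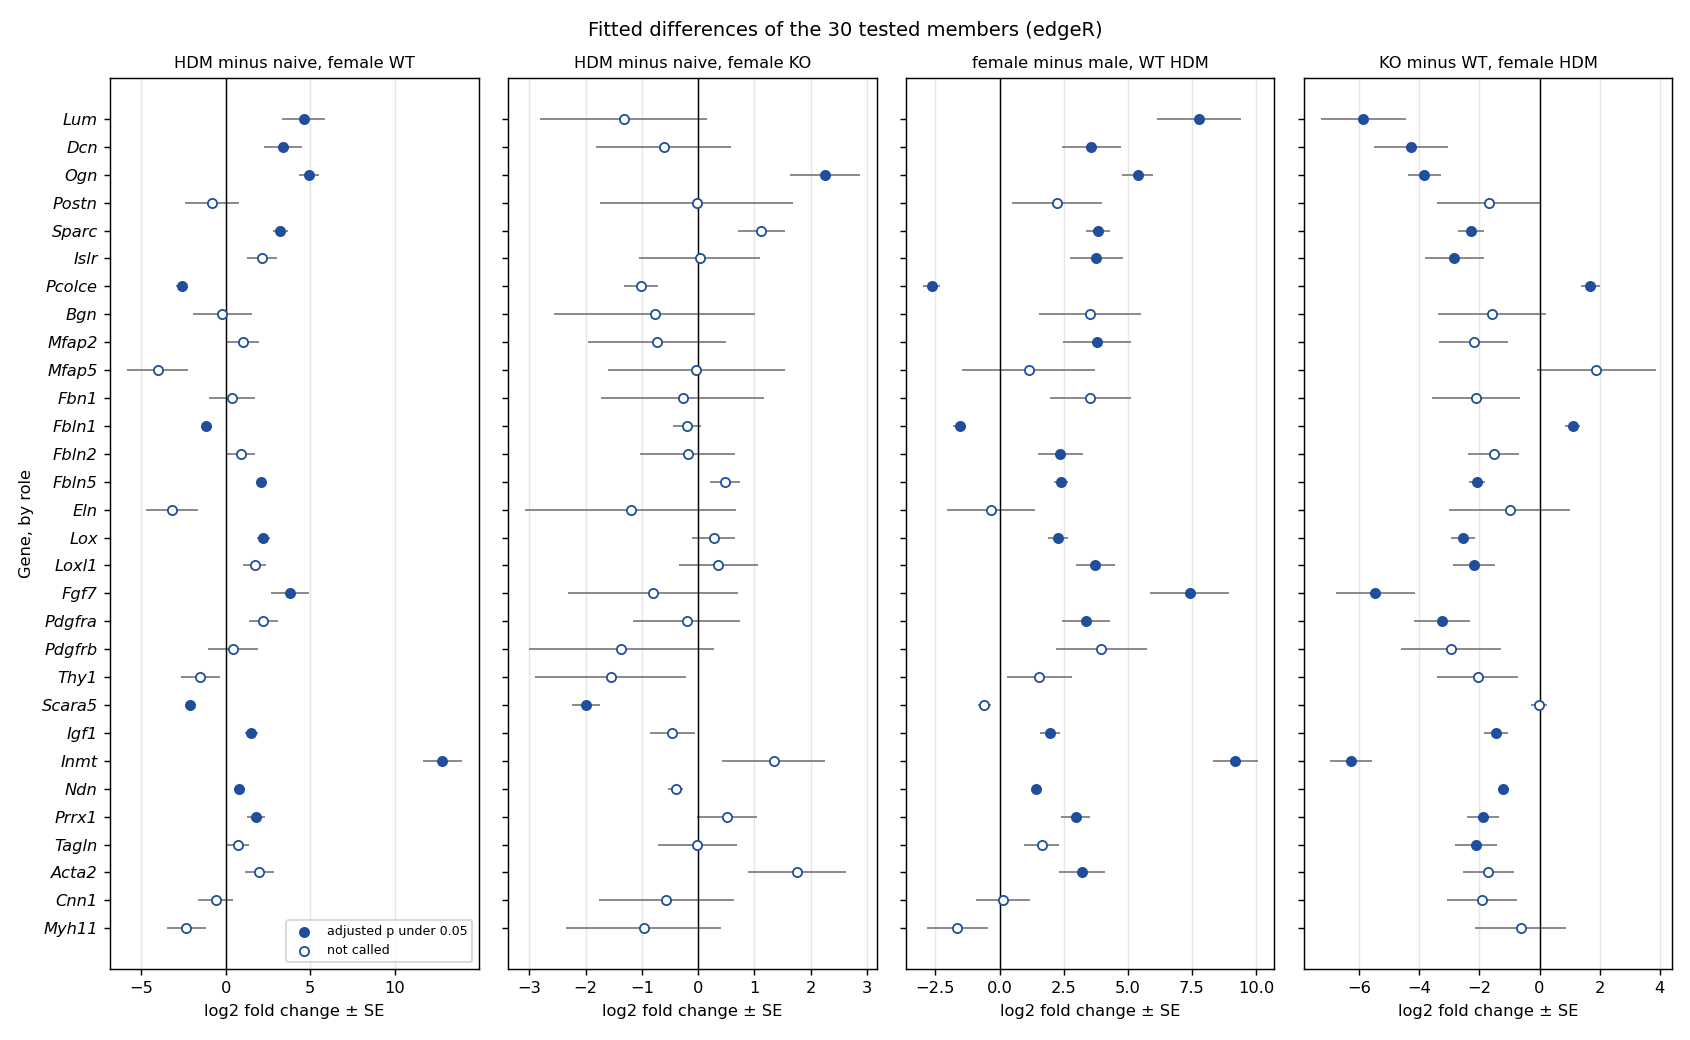
Fitted log2 fold changes with standard errors (bars) of the 30 tested members, by role, in 4 comparisons that share libraries, from edgeR, with filled points at an adjusted p under 0.05 and horizontal axes that differ between panels. In female WT MTECs 14 members are called after HDM, in female KO MTECs 2, between the sexes in WT HDM MTECs 19, and between the libraries labelled KO and WT in female HDM MTECs 17.

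Libraries labelled KO and WT differed in the members after HDM in female MTECs, with 17 of 30 called, 15 lower and 2 higher in KO, where 29.2% of all genes were called. The median log2 fold change was -2.07 over the members and 0.0043 over all genes. Ogn was lower by -3.84 ± 0.56 on the log2 scale, Sparc by -2.28 ± 0.43, Lox by -2.54 ± 0.39, Fbln5 by -2.07 ± 0.27 and Ndn by -1.23 ± 0.13. Inmt was lower by -6.27 ± 0.70. It passed the filter only through the female WT HDM libraries, so its call adds nothing to the 17. Tagln was called in this comparison and in no other (10.1 and 19.5 CPM in WT and 4.4 and 2.43 in KO, log2 fold change -2.11 ± 0.70, adjusted p = 0.0408, edgeR), and the call was lost without female WT HDM replicate 2 (-1.56) or either female KO HDM library (-2.61 and -1.74). Pcolce and Fbln1 were higher in KO, with log2 fold changes of 1.69 ± 0.33 and 1.104 ± 0.25. The call of Fbln1 was lost without female WT HDM replicate 2 (0.796) or female KO HDM replicate 1 (0.904). Lman1 in these KO libraries was at 66.62 and 78.08 CPM, against 117 and 101.3 in the WT libraries. Without female WT HDM replicate 2, Dcn and Lum were among the members that lost their call, with log2 fold changes of -0.86 and -2.06. Both also lost it without either female KO HDM library (-4.94 and -3.82 for Dcn, -5.66 and -6.13 for Lum).

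No member was called between the labelled genotypes in the other groups, where 0% of all genes were called in each. In male naive MTECs edgeR's quasi-likelihood test called 0 members (2 at an unadjusted p under 0.05, and 0 by DESeq2), and in female naive MTECs it called 0 (1 at an unadjusted p under 0.05, and 0 by DESeq2). In male HDM MTECs it called 0 (3 at an unadjusted p under 0.05), while DESeq2 called 2, both lower in KO, beside 3.36% of all genes. The 3 were Fbln1 (log2 fold change -1.11 ± 0.25), Scara5 (-0.996 ± 0.26) and Fgf7 (3.98 ± 1.70). The response to HDM differed between KO and WT for 7 members in female MTECs, 6 lower and 1 higher, where 11.2% of all genes were called, and for 0 in male MTECs by edgeR's quasi-likelihood test (2 at an unadjusted p under 0.05, and 0 by DESeq2), where 0% were. The 7 were Sparc (-2.12 ± 0.59), Fbln5 (-1.62 ± 0.37), Lox (-1.95 ± 0.53), Ndn (-1.20 ± 0.19), Igf1 (-1.98 ± 0.56), Inmt and Pcolce (1.60 ± 0.44), with the differences on the log2 scale. Inmt adds nothing to the 7, because it passed the filter only through the female WT HDM libraries. Without female WT HDM replicate 2, Sparc, Fbln5, Lox, Igf1 and Pcolce lost their call (-1.84, -1.29, -1.52, -1.39 and 1.93).

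Replicates of the same group differed in many of these genes, and the replicate that was higher changed between groups. In male WT naive, male WT HDM and female WT naive MTECs 27 of 30 members were higher in replicate 2, and in male KO naive and female WT HDM MTECs 25 were. The order turned in male KO HDM MTECs, where 27 of 30 were higher in replicate 1, and 22 were in female KO HDM MTECs. In female KO naive MTECs 15 were higher in each replicate. Over all genes the share higher in replicate 2 was between 48.8% and 51.1% in every group. More than a 2-fold excess in replicate 2 was seen for 17 members in female WT naive MTECs, where 1.29% of all genes showed it, and for 16 in male WT naive MTECs, where 1.66% did. In male KO HDM MTECs 9 members had more than a 2-fold excess in replicate 1, where 0.632% of all genes did. In female KO HDM MTECs 0 members differed by more than 2-fold, beside 0.113% and 0.0875% of all genes in the 2 directions. Replicates carry no order, and this describes single libraries.

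Bgn, Postn, Fbn1, Pdgfrb, Eln, Mfap5 and Thy1 were among the members with wide differences of this kind. Outside female WT HDM MTECs, the highest library had 259 times the lowest for Bgn, 173 times for Postn and 52.2 times for Fbn1, against 6.54 times for Sparc and 2.39 times for Lox. Postn stood at 0.431 and 13.7 CPM in male WT naive, 0.252 and 5.35 in male WT HDM, 0.414 and 4.75 in male KO naive and 6.67 and 3.3 in male KO HDM MTECs, and at 5.81 and 2.54 in female KO naive and 5.04 and 3.22 in female KO HDM MTECs. Fbn1 stood at 1.46 and 14 CPM in male WT naive, 1.29 and 5.19 in male WT HDM, 1.17 and 12.3 in male KO naive and 6.24 and 1.03 in male KO HDM MTECs. The collagens, none of which is a member, summed to 6.861 and 207.2 CPM in male WT naive and 93.12 and 18.34 in male KO HDM MTECs. In a model with a term for replicate number, 0 of 30 members were called by edgeR's quasi-likelihood test (12 at an unadjusted p under 0.05, and 0 by DESeq2), where 0% of all genes were called. At an unadjusted p under 0.05 stood 7.23% of all genes. The median log2 difference, replicate 2 minus replicate 1, was 0.78 over the members and 1.4e-05 over all genes.

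**Figure D4:**
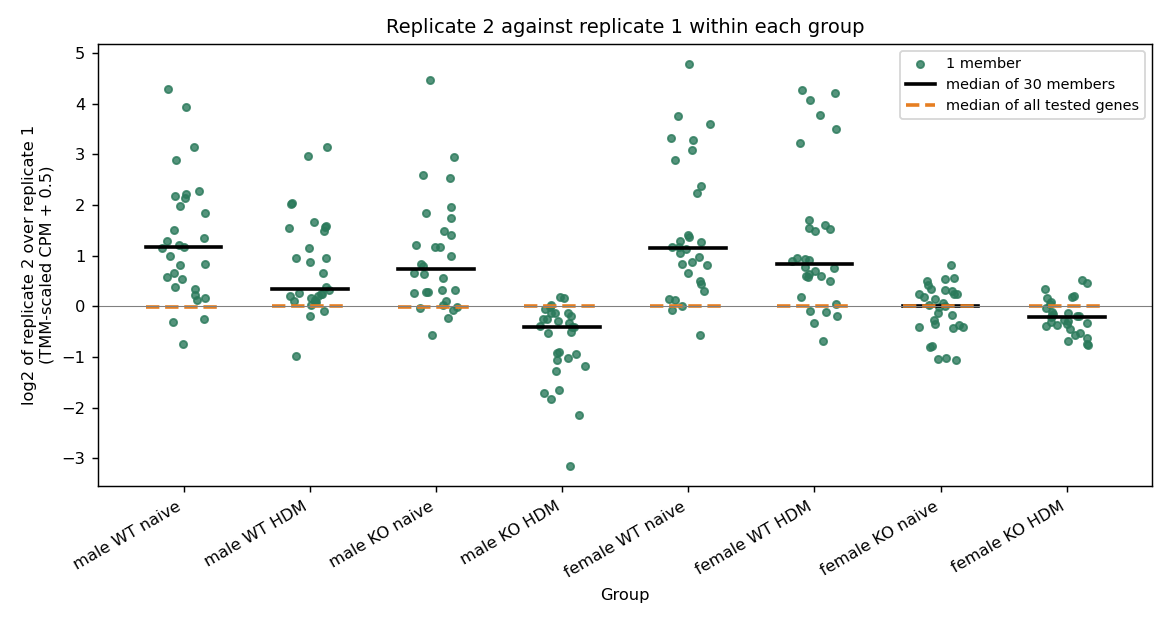
Log2 of replicate 2 over replicate 1, on CPM + 0.5, for the 30 tested members (points, spread sideways at random) in each group, with the median of the members as a black line and the median of all tested genes as a dashed line. In 5 groups most members lie above 0, in male KO HDM MTECs 27 of 30 lie below it, and the median of all genes stays close to 0 in each group.

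The 9 members that did not pass the filter were Fgf10, Mfap4, Tcf21, Tbx4, Gli1, Dpt, Clec3b, Meox2 and Des. Fgf10, the growth factor of lung mesenchyme, was above the floor in 1 library, female WT HDM replicate 2, at 0.284 CPM. Mfap4, a microfibril-associated protein, was above it in 5 libraries and highest at 1.75 CPM in female WT naive replicate 2, with no count in either female WT HDM library. Tbx4, a T-box factor of lung mesenchyme, and Gli1, a target of hedgehog signals, were above it in 3 libraries each, and Dpt (dermatopontin) and Des in 2 each. Tcf21 and Meox2, transcription factors of mesenchyme, and Clec3b, which encodes tetranectin, were at or below 3 counts in all 16 libraries. These 9 genes were not tested in the fit that gave the calls above.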

How the data were processed

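RNA of 16 MTEC cultures was measured by RNA sequencing. The values the authors deposited are raw counts, not normalized, for Ensembl genes, with 1 column per library. The submitters' processing notes name the build GRCm38, Trimmomatic version 0.36, STAR version 2.5.2b, Subread version 1.5.2, featureCounts and DESeq2. The annotation release and strand setting are not given in the sources used here, so reads of overlapping or antisense genes may be counted together. Columns were matched to samples by sex, genotype, treatment and replicate, an unnumbered column being replicate 1.

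Symbols, positions and exon lengths came from GENCODE mouse release 21 on GRCm38, which matched 49056 of 49315 identifiers, and unmatched identifiers held 0.0106% of counts. Totals were 21860698 to 43442188 counts per library. Low genes were removed by filterByExpr (by group, minimum count 10), libraries were scaled by TMM, and 15993 genes were fitted with 8 group means in edgeR's quasi-likelihood model (edgeR version 4.0.16, R version 4.3.3). The 17 comparisons were 4 HDM responses, 4 sex differences, 4 genotype differences, 4 differences between responses and 1 between replicate numbers, the last in a model of group and replicate. Each was called at a two-sided adjusted p under 0.05 (Benjamini-Hochberg) over all genes. Alternatives were DESeq2 version 1.42.0, other scalings, other filters, only the compared libraries, a replicate block and leaving out each library. The script was tested on simulated data.

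The members and lists were chosen with earlier results of these data known. Every member is accounted for. Values in every library are given for most members that were called and reached a mean of 1 CPM in a group. The male libraries of the rest of these are given as ranges, and for other members ranges over several groups or single values are given. From neighbour lists the genes of smallest p are named, from marker lists the most abundant. Figures used Python version 3.11.15 with matplotlib version 3.10.9.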

Additional observations from a re-analysis of the deposited data

Results flagged for a closer look

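The HDM response of WT MTECs differed between female and male for 10 members by the test of the difference itself (edgeR's quasi-likelihood test, Benjamini-Hochberg adjusted over all genes). Female minus male, the log2 difference of responses was 3.35 for Sparc, 5.19 for Ogn, 7.09 for Lum, 2.46 for Lox, 2.22 for Fbln5 and 2.29 for Prrx1. It was -2.82 for Pcolce, -1.75 for Scara5 and -1.48 for Fbln1. For Inmt the fitted difference was 13.59, which depends on the prior count because both female WT naive libraries had no count. Its call adds nothing to the 10, because it passed the filter only through the female WT HDM libraries. Lum and Prrx1 were no longer called when female WT HDM replicate 2 or any of several other libraries was left out, and Inmt when male WT naive replicate 1 was.

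The HDM response of female MTECs differed between KO and WT for 7 members by the same test. KO minus WT, the log2 difference of responses was -2.12 for Sparc, -1.62 for Fbln5, -1.95 for Lox, -1.20 for Ndn and -1.98 for Igf1, and it was 1.60 for Pcolce. The fitted difference of -11.46 for Inmt again rests on a group with no count, and its call adds nothing to the 7 for the reason given above. Sparc, Fbln5, Lox, Igf1 and Pcolce each lost their call when female WT HDM replicate 2 was left out, and also without several other libraries, and Inmt when female KO naive replicate 1 was. The call of Ndn held without any 1 of the 8 female libraries. The female WT groups enter both sets of differences, so they are not independent.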

How the results depend on the processing

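The 73 called results of single members were recomputed 875 times, of which 747 kept direction and call, 127 kept direction without the call, and 1 reversed: the response of Dcn to HDM in female WT MTECs, -0.0285 without female WT HDM replicate 2 and 4.31 without replicate 1. Without a filter on low counts, where the cause was not tested, called members numbered 6 and 5 for the HDM response in male WT and male KO, 26 and 10 in female WT and female KO, 16 and 14 for sex in WT and KO naive, 13 in KO HDM, 7, 17, 10 and 27 for genotype in male naive, female naive, male HDM and female HDM MTECs, and 23, 10, 5 and 20 for the differences between responses by sex in WT, by sex in KO, by genotype in male and by genotype in female. With only the compared libraries, more were called for the HDM response in female KO, sex in KO HDM and the response by sex in KO. Fewer were called for sex in WT and KO naive MTECs. DESeq2 called 2, 3 and 4 members for sex in WT naive, KO naive and KO HDM, where 1.31%, 1.36% and 26.9% of all genes were called. It called 2 for genotype in male HDM (3.36% of all genes) and 11 for the response by genotype in female MTECs (15%). Among the alternatives in this section, the share of all genes is given for DESeq2 alone. The other counts are therefore not read as results about the members. The summed level after HDM in female KO MTECs was 0.984 times the naive level without Sparc. Leaving out 1 library at a time, with the spread pooled over the other groups, gave 9 to 15 for the HDM response in female WT and 1 to 1 in female KO, 0 to 1 for sex in WT naive, 0 to 0 in KO naive and 1 to 2 in KO HDM, 7 to 16 for genotype in female HDM, and 1 to 10 for the response by genotype in female MTECs. Replicate numbers were not shown to pair cultures throughout: correlations of replicate differences ran from -0.29 to 0.61 over the 12 pairs of groups. For HDM and naive they were 0.61 in male WT, 0.359 in female WT, -0.0743 in male KO and -0.156 in female KO MTECs. For KO and WT they were 0.514 in male naive, 0.25 in female naive, 0.046 in male HDM and -0.109 in female HDM MTECs. The main fit has no term for pairing. A replicate block gave 4 members for sex in KO HDM and stayed within 1.5 times the count elsewhere. With numbers crossed, added after seeing the data, the HDM response in female KO, sex in KO naive and genotype in female HDM gave 2, 1 and 18. There were 2 cultures per group, and the part of depth in the results of low members was not tested.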
